A study of Ovis aries with 48 samples.

Results

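The MIR30 microRNAs measured in sheep fat were MIR30A, MIR30B, MIR30C and MIR30D. They were chosen by name, not by their values, but with earlier results of these data known. They are 4 of the 51 microRNAs of the tables that lie outside the imprinted DLK1-DIO3 cluster, to which another 54 belong. All 4 were detected in each of the 48 libraries. MicroRNAs are short RNAs that guide Argonaute proteins to messenger RNAs and lower their translation or stability. The members of the MIR30 family share the seed, the stretch near the 5′ end that pairs with targets, so they recognise largely the same messages. In cultured fat precursor cells the family is known for promoting adipogenesis, in part by lowering RUNX2, a transcription factor of bone formation, and MIR30B and MIR30C are known for favouring thermogenic gene expression in brown and beige adipocytes by lowering the co-repressor RIP140.

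The fat came from 16 female sheep in 2 cohorts, and each group held 4 sheep. In the T cohort, 4 control sheep and 4 sheep exposed before birth to testosterone (prenatal T) each gave subcutaneous, visceral, epicardial (around the heart) and perirenal (around the kidney) fat. Mothers of the prenatal T sheep received 100 mg testosterone propionate in corn oil into the muscle, 2 times a week, between days 30 and 90 of gestation. In the BPA cohort, 4 control and 4 exposed sheep gave subcutaneous and visceral fat; here mothers received daily injections under the skin of bisphenol A (BPA), a plastics monomer with oestrogen-like activity, at 0.5 mg/kg/day in corn oil, or of corn oil alone, over the same days. A vehicle is stated for the BPA cohort's controls only, and no age at sampling is stated in the labels. The libraries held 222537 to 1533680 microRNA reads (median 605583). Their label numbers fell into an early and a later set that were spread unevenly: in the T cohort 7 of 8 subcutaneous and 7 of 8 perirenal libraries were early, against 3 of 8 visceral and 2 of 8 epicardial libraries.

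The deposited values are reads divided by a size factor that had been set within each depot, so levels in different depots were put on 1 scale per cohort before depots were compared. "Normalised reads" below are on that cohort scale for depots and as deposited for treatments. Differences are of log2(normalised reads + 1), tested with limma across all microRNAs with a mean of at least 5, and a difference was called where the Benjamini-Hochberg adjusted p was below 0.05. All 4 members passed this filter in each comparison. In the RefSeq annotation (assembly ARS-UI_Ramb_v3.0) MIR30B and MIR30D are direct neighbours with 0 genes between them, MIR30C lies within NFYC, a gene for a subunit of the CCAAT-binding factor, and MIR30A lies within the long non-coding RNA LOC114116445. That host RNA was above 0 in 1 of 48 libraries. LOC114116349, which overlaps MIR30B in part, was above 0 in 8 of 48, with a highest value of 1.74 normalised reads. Both were read from libraries of small RNA, so low values do not show that these long RNAs were absent.

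Together the 4 members took 0.937% to 2.97% of the microRNA reads of a library, with a mean of 1.75% ± 0.434 (SD, n = 48). MIR30D took the most reads of the family in most libraries, with a median of 56.2% of MIR30 reads (range 31.7% to 68.3%). MIR30A followed with 29.3% (18.5% to 49.7%), MIR30C with 13% (7.51% to 19.2%) and MIR30B with 2.06% (1.29% to 9.61%). A microRNA read spans the mature molecule, so these shares were not divided by length. The order D, A, C, B held in 40 of 48 libraries. In 7 libraries MIR30A exceeded MIR30D, and 6 of these were perirenal; the remaining library was the visceral fat of prenatal T sheep 255. In the epicardial fat of prenatal T sheep 48, MIR30C was marginally above MIR30A. The fewest reads behind a value were 834 for MIR30A, 214 for MIR30C and 1292 for MIR30D, but 41 for MIR30B (exact Poisson 95% interval 29.4 to 55.6, counting error only).

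**Figure D1:**
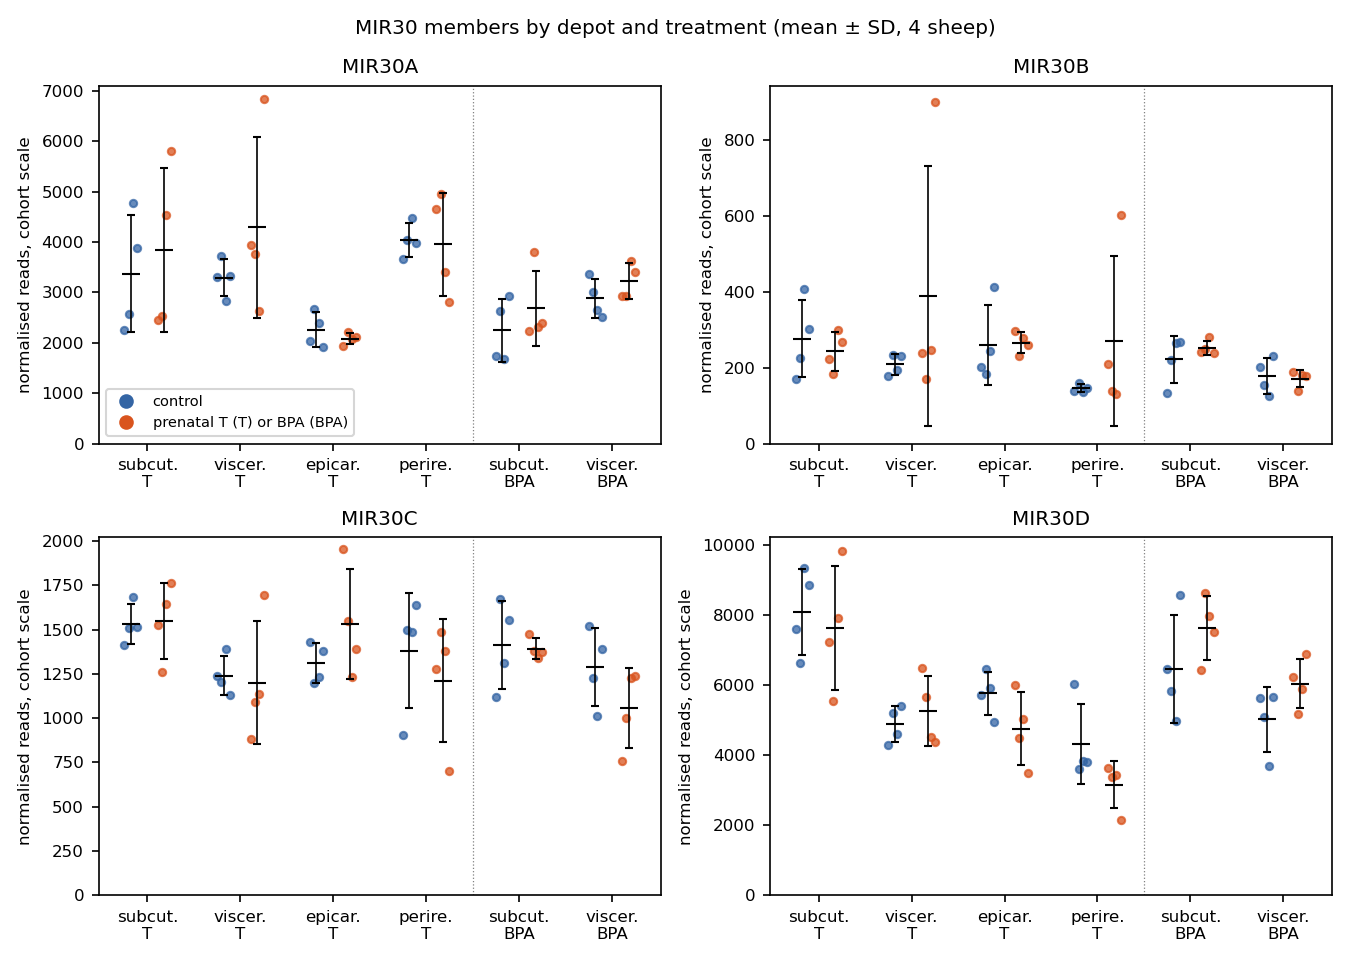
Normalised reads on the cohort scale (vertical axis, linear from 0) of each member in each depot of the T cohort (left of the dotted line) and the BPA cohort. Points are sheep, blue for control and orange for exposed, with the mean ± SD of 4 sheep; MIR30D is highest in subcutaneous fat, MIR30A is lowest in epicardial fat of the T cohort, and MIR30B has 2 high points, both from sheep 255.

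Depots were compared within each cohort over 8 libraries per depot, averaged over control and exposed sheep; comparisons with a depot in common share its libraries. Between visceral and subcutaneous fat of the T cohort 1 of 4 members was called, where 42.5% of the 80 microRNAs tested were called. Between epicardial and subcutaneous fat 2 of 4 were called (background 60%), and between perirenal and subcutaneous fat 1 of 4 (background 48.8%). Between epicardial and visceral fat 1 of 4 was called (background 12.5%), between perirenal and visceral fat 1 of 4 (background 26.2%), and between perirenal and epicardial fat 2 of 4 (background 21.2%). In the BPA cohort 1 of 4 was called between visceral and subcutaneous fat, where 53.4% of 73 microRNAs were called. The members' shares were thus not above those of all microRNAs in the comparisons with subcutaneous fat. Each call fell on MIR30A or MIR30D.

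MIR30D was lower in perirenal than in subcutaneous fat in 8 of 8 sheep. The subcutaneous libraries of control sheep 098, 131, 132 and 201 held 7579, 6614, 9323 and 8836 normalised reads, and those of prenatal T sheep 48, 185, 233 and 255 held 7213, 5544, 7898 and 9820.1. In perirenal fat the same controls held 6027, 3596, 3818 and 3809, and the same prenatal T sheep 3615, 3378, 3439 and 2144. 7 of the 8 perirenal values lay below each subcutaneous value; that of control sheep 098 lay above the subcutaneous value of sheep 185. The log2 difference was -1.10 (SE 0.17, limma adjusted p = 2.73e-06). It was called with control sheep alone (-0.93, adjusted p = 0.0049), with prenatal T sheep alone (-1.28, adjusted p = 0.00426), with early libraries alone (-1.18, adjusted p = 1.77e-05) and without any single sheep.

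Visceral and epicardial fat held intermediate levels of MIR30D. Visceral fat of control sheep 098, 131, 132 and 201 held 4285, 5202, 4603 and 5397 normalised reads, and that of prenatal T sheep 48, 185, 233 and 255 held 6482, 5659, 4514 and 4370.3. Epicardial fat of these controls held 5711, 6452, 5912 and 4951, and that of the prenatal T sheep 6007, 4469.5, 5028 and 3497. Both ranges lay largely below the subcutaneous range and overlapped each other. MIR30D was lower than in subcutaneous fat by -0.62 in visceral fat (SE 0.17, limma adjusted p = 0.00246, 7 of 8 sheep) and by -0.58 in epicardial fat (SE 0.17, adjusted p = 0.00383, 8 of 8 sheep). The visceral and epicardial levels differed by 0.043 (95% CI -0.30 to 0.38, adjusted p = 0.924).

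Perirenal MIR30D was also lower than visceral MIR30D (-0.48, SE 0.17, limma adjusted p = 0.0351, 7 of 8 sheep) and than epicardial MIR30D (-0.52, SE 0.17, adjusted p = 0.0222, 7 of 8 sheep). Sheep 098 was the exception in both, and its perirenal library is the only later one of that depot. MIR30D was higher in later than in early libraries in 7 of the 8 groups that held both sets, by 0.29 log2 units on average; as reads scaled to the total of microRNA reads (CPM) it was higher in 6 of 8, by 0.16. With a term for the set, the perirenal differences from visceral and epicardial fat were both -0.32 and were not called (adjusted p = 0.219 and 0.216), whereas that from subcutaneous fat was -1.10 (adjusted p = 4.2e-07). On the cohort scale and without the set term, MIR30D was thus highest in subcutaneous fat, next in epicardial and visceral fat, which did not differ beyond their spread, and lowest in perirenal fat; with the set term perirenal fat was not called below visceral or epicardial fat, and with the other scalings described below epicardial fat was not called below subcutaneous fat. In whole tissue a lower level from fewer cells of a type and from less RNA per cell cannot be told apart.

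On the cohort scale MIR30A had a different order, with the lowest level in epicardial fat. Epicardial libraries of control sheep 098, 131, 132 and 201 held 2036, 2674, 2399.8 and 1910.3 normalised reads, and those of prenatal T sheep 48, 185, 233 and 255 held 1942, 2213, 2067 and 2115. Perirenal libraries of the same sheep held 3656, 4039, 4481 and 3978 in controls and 4647, 4949, 3407 and 2803 in prenatal T sheep. The ranges of these depots did not overlap. Perirenal MIR30A was higher than epicardial MIR30A by 0.87 (SE 0.20, limma adjusted p = 0.00197), in 8 of 8 sheep. It was called without any single sheep (0.81 to 0.95) and in controls alone (0.85, adjusted p = 0.0147), but not in prenatal T sheep alone (0.89, adjusted p = 0.259) or in early libraries alone, where 2 epicardial libraries remained (0.88, adjusted p = 0.451).

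Visceral MIR30A was 3300.0, 3724, 2837 and 3319 normalised reads in controls 098, 131, 132 and 201. In prenatal T sheep 48, 185, 233 and 255 it was 3933, 3766, 2629 and 6836. The visceral range touched the epicardial range only through sheep 233 and, on the epicardial side, sheep 131. Epicardial MIR30A was lower than visceral MIR30A by -0.75 (SE 0.20, limma adjusted p = 0.0132), in 8 of 8 sheep. Without sheep 098, 131 or 201 this difference was not called, with an adjusted p of up to 0.0697 and a difference of -0.63 to -0.86 over the 8 sheep left out. It was -0.53 with scaling outside the DLK1-DIO3 cluster (adjusted p = 0.0382) and -0.25 as CPM (adjusted p = 0.474), so its size depended on the scale.

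Subcutaneous MIR30A was widely spread, as was visceral MIR30A. In subcutaneous fat it was 2260.4, 2580.0, 4768 and 3884 normalised reads in controls 098, 131, 132 and 201, and 2455, 2540.0, 4529.7 and 5806 in prenatal T sheep 48, 185, 233 and 255. In each arm 2 sheep were low and 2 were high, and the low values overlapped those of epicardial fat. Epicardial MIR30A was lower than subcutaneous MIR30A by -0.65 (SE 0.20, limma adjusted p = 0.00736, 7 of 8 sheep). Visceral and perirenal MIR30A differed from subcutaneous MIR30A by 0.10 (95% CI -0.32 to 0.51) and 0.21 (95% CI -0.20 to 0.63), and from each other by 0.11 (95% CI -0.30 to 0.53). These 3 depots were therefore not ordered beyond their spread.

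MIR30C, known for lowering PAI-1 and ALK2 in fat cells, had no depot difference called on the cohort scale. It ranged from 1259 to 1767 normalised reads in subcutaneous fat (median 1521), from 1196 to 1958 in epicardial fat (median 1385), from 703 to 1638 in perirenal fat (median 1431) and from 881 to 1694 in visceral fat (median 1169.8). The 4 ranges overlapped. Its largest difference was between visceral and subcutaneous fat (-0.35, SE 0.17, limma adjusted p = 0.106), with the lower value in visceral fat in 8 of 8 sheep. As CPM this difference was -0.37, with the lower value in visceral fat in 7 of 8 sheep. With scaling outside the DLK1-DIO3 cluster it changed sign, to 0.067. Other scalings gave calls: epicardial MIR30C was higher than subcutaneous MIR30C outside the DLK1-DIO3 cluster (0.52, adjusted p = 0.00374), and higher than visceral MIR30C there (0.45, adjusted p = 0.0382) and as CPM (0.73, adjusted p = 0.0343).

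MIR30B was the scarcest member. It ranged from 171 to 406 normalised reads in subcutaneous fat (median 247), from 170.3 to 899.6 in visceral fat (median 232), from 184 to 413 in epicardial fat (median 252) and from 132 to 601 in perirenal fat (median 142). The highest visceral and perirenal values were both from prenatal T sheep 255; the other 7 sheep held at most 247 and 211 there. On the cohort scale perirenal MIR30B was lower than visceral MIR30B in 8 of 8 sheep (-0.50, SE 0.29, limma adjusted p = 0.224). It was also lower than subcutaneous (-0.49, adjusted p = 0.17) and epicardial MIR30B (-0.52, adjusted p = 0.244) in each sheep but 255. As CPM it was lower than visceral and subcutaneous MIR30B in 6 of 8 sheep each, and than epicardial MIR30B in 7 of 8. Perirenal minus subcutaneous MIR30B was then -0.20, and -0.011 with scaling outside the DLK1-DIO3 cluster. Against epicardial fat these values were -0.72 and -0.68, and against visceral fat -0.20 and -0.44. The visceral and perirenal libraries of sheep 255 were also left out on the cohort scale, a choice made after seeing the data. Perirenal MIR30B was then lower than subcutaneous MIR30B by -0.73 (limma adjusted p = 0.00284) and than epicardial MIR30B by -0.76 (adjusted p = 0.0036).

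Several depot differences moved with the scaling, and the DLK1-DIO3 cluster makes up much of the table from which the common scale was set. With factors from the microRNAs outside the cluster, a scaling chosen after seeing the data, the median difference of all microRNAs from subcutaneous fat moved from 0.13 to 0.55 in visceral, from 0.032 to 0.67 in epicardial and from 0.073 to 0.55 in perirenal fat. MIR30D in perirenal against subcutaneous fat was then -0.63 (limma adjusted p = 0.00151), and as CPM it was -0.81 (adjusted p = 0.00097). MIR30D in epicardial against subcutaneous fat was 0.060 and -0.091 under these scalings, MIR30A there was -0.014 and -0.16, and neither was called. MIR30D in visceral against subcutaneous fat was -0.21 (not called) and -0.64 (adjusted p = 0.00889), while MIR30A there was 0.52 (adjusted p = 0.019) and 0.084 (not called). MIR30D in perirenal against visceral fat was -0.42 (adjusted p = 0.0457) and, as CPM, -0.17 (adjusted p = 0.508). Perirenal against epicardial fat kept both calls, with 0.70 and 0.67 for MIR30A and -0.69 and -0.72 for MIR30D.

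**Figure D2:**
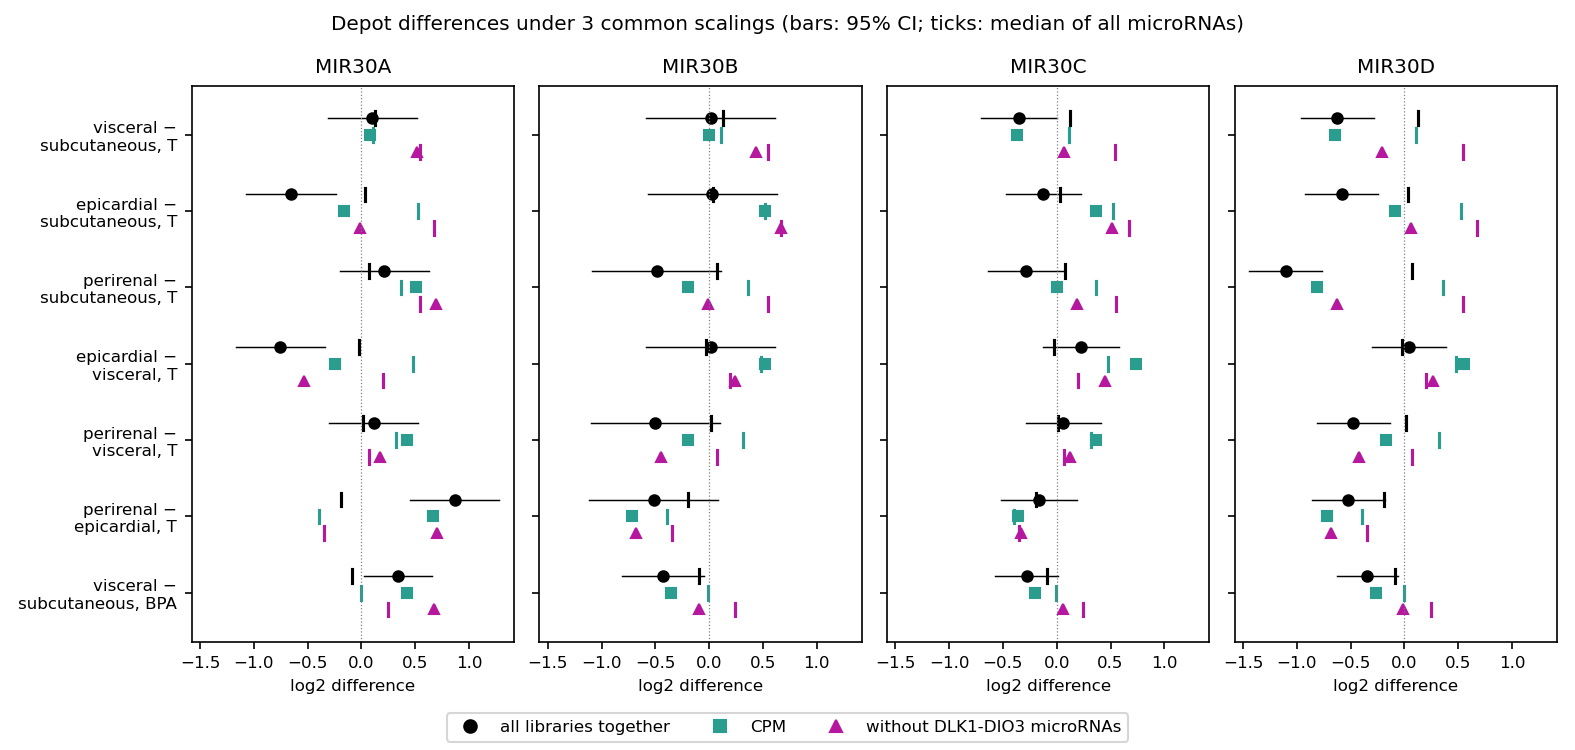
Log2 differences between depots (horizontal axis) for each member under 3 scalings that put depots on 1 scale, with the median of all microRNAs under the same scaling as a short upright tick and the 95% confidence interval of the main scaling as a line. For MIR30D in perirenal against subcutaneous fat all 3 symbols lie left of 0, whereas for MIR30D in epicardial against subcutaneous fat the symbols straddle 0.

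A ratio of 2 members within a library does not depend on scaling at all. MIR30A over MIR30D was 0.298, 0.390, 0.511 and 0.440 in subcutaneous fat of control sheep 098, 131, 132 and 201, and 0.340, 0.458, 0.573 and 0.591 in prenatal T sheep 48, 185, 233 and 255. In perirenal fat it was 0.607, 1.12, 1.17 and 1.04 in the same controls and 1.29, 1.46, 0.991 and 1.31 in the same prenatal T sheep. Each perirenal ratio exceeded each subcutaneous ratio. Within a sheep the log2 ratio was higher in perirenal fat by 1.32 ± 0.37 (SD, n = 8), a 2.49-fold shift, in 8 of 8 sheep.

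In visceral fat the MIR30A over MIR30D ratio was 0.770, 0.716, 0.616 and 0.615 in controls 098, 131, 132 and 201, and 0.607, 0.665, 0.582 and 1.56 in prenatal T sheep 48, 185, 233 and 255. In epicardial fat it was 0.356, 0.414, 0.406 and 0.386 in controls and 0.323, 0.495, 0.411 and 0.605 in prenatal T sheep. Epicardial ratios lay in the range of the subcutaneous ones but for sheep 255 (difference in log2 -0.073 ± 0.25, higher in 4 of 8 sheep). Visceral ratios were above subcutaneous ones in 8 of 8 sheep, by 0.72 ± 0.49 in log2, and above epicardial ones in 8 of 8, where the epicardial minus visceral difference was -0.80 ± 0.32. Perirenal ratios exceeded epicardial ratios by 1.39 ± 0.36 in 8 of 8 sheep, and visceral ratios by 0.59 ± 0.58 in 6 of 8.

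Among sheep whose 2 libraries were of the same set, the ratio was higher in perirenal than in subcutaneous fat in 6 of 6 (mean 1.38 in log2), in visceral than in subcutaneous fat in 4 of 4 (0.76) in perirenal than in epicardial fat in 3 of 3 (1.15) and in perirenal than in visceral fat in 2 of 4 (0.24). The ratio itself was lower in later than in early libraries in 5 of the 8 groups that held both sets, by -0.39 on average. The mature MIR30A and MIR30D sequences are nearly identical, and no source used here says how reads that fit more than 1 member were counted, so the split of reads between these members is uncertain.

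**Figure D3:**
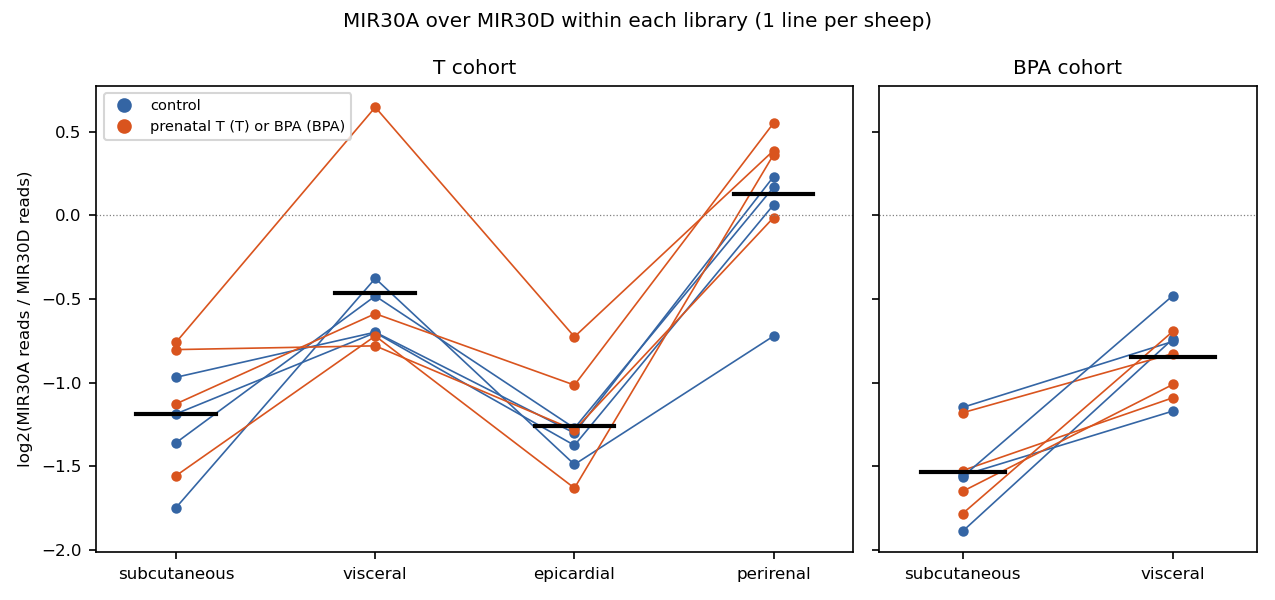
Log2 of MIR30A reads over MIR30D reads within each library (vertical axis) by depot, with 1 line per sheep, blue for control and orange for exposed, and a black bar at the mean of each depot. In the T cohort the line of each sheep rises from subcutaneous to perirenal fat, and in the BPA cohort each rises from subcutaneous to visceral fat.

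MIR30C over MIR30D was higher in perirenal than in subcutaneous fat in 7 of 8 sheep (0.81 ± 0.49 in log2) and MIR30B over MIR30D also in 7 of 8 (0.61 ± 1.16), with sheep 255 at 3.36. MIR30A over MIR30C was higher in perirenal than in epicardial fat in 8 of 8 sheep (1.03 ± 0.55) and lower in epicardial than in visceral fat in 8 of 8 (-0.98 ± 0.66). For the neighbours MIR30B and MIR30D the mean log2 ratio was -4.95 ± 0.29 in subcutaneous, -4.31 ± 0.86 in visceral, -4.34 ± 0.52 in epicardial and -4.34 ± 1.08 in perirenal fat (SD, n = 8).

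The BPA cohort offered other sheep in which to look at visceral against subcutaneous fat. Subcutaneous MIR30D was 6457, 5814, 4968 and 8574 normalised reads in control sheep 902, 908, 924 and 928, and 6434, 8608, 7966 and 7502 in BPA sheep 910, 918, 977 and 984. In visceral fat it was 5625, 5068, 3694 and 5652 in these controls and 6216, 5179.9, 5867 and 6869.7 in the BPA sheep. The ranges overlapped, but the visceral value was the lower one in 8 of 8 sheep. MIR30D was lower in visceral fat by -0.35 (SE 0.14, limma adjusted p = 0.0365). This call was lost with a term for the library set (-0.26, adjusted p = 0.115), as CPM (-0.27, adjusted p = 0.127), with scaling outside the DLK1-DIO3 cluster (-0.012, adjusted p = 0.933) and without sheep 977 or 984.

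MIR30A was not called in the BPA cohort. It ranged from 1683 to 3801 normalised reads in subcutaneous fat (median 2355) and from 2513 to 3628 in visceral fat (median 2964), with the visceral value higher in 6 of 8 sheep (0.34, SE 0.15, limma adjusted p = 0.0595). It was called as CPM (0.42, adjusted p = 0.0306) and with scaling outside the cluster (0.68, adjusted p = 0.000187). The ratio of MIR30A to MIR30D was 0.270, 0.452, 0.339 and 0.341 in subcutaneous fat of controls 902, 908, 924 and 928, and 0.348, 0.442, 0.291 and 0.319 in BPA sheep 910, 918, 977 and 984. In visceral fat it was 0.599, 0.593, 0.717 and 0.445 in the controls and 0.470, 0.564, 0.618 and 0.496 in the BPA sheep. It was higher in visceral fat in 8 of 8 sheep, by 0.69 ± 0.36 in log2, and in 5 of 5 sheep whose 2 libraries were of the same set. The visceral ratio was thus above the subcutaneous ratio in each of the 16 sheep of both cohorts.

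On the cohort scale MIR30B and MIR30C were lower in visceral than in subcutaneous fat in 7 of 8 sheep of the BPA cohort. Sheep 902 was the exception for both. As CPM MIR30B was lower in 6 of 8 sheep (-0.35), but MIR30C was higher in 5 of 8 (mean -0.20). With scaling outside the DLK1-DIO3 cluster MIR30B differed by -0.098 and MIR30C by 0.055. MIR30B ranged from 134 to 279 normalised reads in subcutaneous and from 126.5 to 231 in visceral fat (-0.43, SE 0.18, limma adjusted p = 0.0525). MIR30C ranged from 1119 to 1673 and from 757 to 1519 (-0.28, SE 0.14, adjusted p = 0.0961). Without sheep 902, 3 of the 4 members were called, where 43 microRNAs in all were called against 39 with this sheep, with MIR30B at -0.58 (adjusted p = 0.00609) and MIR30C at -0.38 (adjusted p = 0.0312).

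Prenatal exposure was compared with control within each depot, 4 sheep against 4, on the deposited values. 0 of 4 members were called by limma for prenatal T in subcutaneous fat, where 0% of 71 microRNAs were called, in visceral fat (0% of 76), in epicardial fat (0% of 85) and in perirenal fat (0% of 86), or for BPA in subcutaneous fat (0% of 71) and in visceral fat (0% of 76). At an unadjusted p under 0.05, 2, 4, 20, 7, 6 and 4 microRNAs passed in these 6 comparisons, and 0 of the 24 member differences did. The member differences ranged from -0.51 to 0.53 log2 units, with standard errors of 0.16 to 0.48 and adjusted p-values of 0.199 to 0.997. Their 95% confidence intervals reached as far as -1.27 and 1.59, so that with 4 sheep a group sizeable changes were not excluded where the intervals were wide.

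The member closest to the threshold was MIR30C in epicardial fat. It was 1741, 1429.5, 1383 and 1573 normalised reads in controls 098, 131, 132 and 201, and 2567, 2052, 1685 and 2019 in prenatal T sheep 48, 185, 233 and 255. The groups overlapped only through control 098 and prenatal T sheep 233. The difference was 0.43 (SE 0.21, 95% CI -0.018 to 0.88, limma adjusted p = 0.199). In this depot 4 of 4 control libraries and 2 of 4 prenatal T libraries were later ones. No treatment difference of a member was called under any alternative, a term for the set among them.

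MIR30D in perirenal fat was 9851, 5568, 6138 and 5988 normalised reads in controls 098, 131, 132 and 201, and 5406, 5149, 5764 and 3053 in prenatal T sheep 48, 185, 233 and 255. Control 098 stood far above and sheep 255 below the rest, and the remaining values lay close together. The difference was -0.51 (SE 0.34, 95% CI -1.27 to 0.25, limma adjusted p = 0.463). MIR30D in the other depots of the T cohort differed by -0.20 in subcutaneous, 0.055 in visceral and -0.076 in epicardial fat.

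MIR30B in visceral fat was 97.8, 129.8, 121 and 123.5 normalised reads in controls 098, 131, 132 and 201, and 133, 100.0, 135 and 458 in prenatal T sheep 48, 185, 233 and 255. In perirenal fat it was 226, 248, 220.3 and 230.3 in these controls and 315, 211, 221 and 856 in the prenatal T sheep. In both depots the groups overlapped and sheep 255 stood alone. The differences were 0.53 in visceral fat (SE 0.48, limma adjusted p = 0.685) and 0.53 in perirenal fat (SE 0.43, adjusted p = 0.532). In sheep 255 the epicardial level, 379, lay within the range of the other prenatal T sheep (305 to 388), and the subcutaneous level, 238, lay above theirs (172 to 220.4) and within that of the controls (156 to 403).

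In those 2 libraries of sheep 255 other members stood apart as well. The visceral library held the highest MIR30A of the T cohort. On the cohort scale the perirenal library held the lowest MIR30A, MIR30C and MIR30D of that depot, but as CPM it held the highest perirenal MIR30A (9292) and a MIR30D of 7108 in a depot range of 4944 to 7483, so the direction turned with the scale. The summed smooth muscle marker, MIR143, was 153692 CPM in its visceral library, the highest of that depot (19377 to 153692, median 24475), and 175334 CPM in its perirenal library, also the highest (37170 to 175334, median 125788). The perirenal library also held the highest kidney epithelium marker MIR194 (338 CPM) and the highest MIR200 sum (200.1 CPM) of its depot and the lowest lymphocyte MIR150 (879 CPM, depot median 3752), and the visceral library the highest MIR194 (383 CPM). The part of these markers in the MIR30 levels was not tested.

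No member was called for BPA. MIR30D in subcutaneous fat was 7582, 5795, 5656 and 8546 normalised reads in controls 902, 908, 924 and 928 and 7243, 10331, 8143 and 8333 in BPA sheep 910, 918, 977 and 984 (0.31, SE 0.18, limma adjusted p = 0.626). In visceral fat it was 5055, 4793, 3388 and 5181 in controls and 5536, 4882, 5396 and 7140.3 in BPA sheep (0.32, SE 0.21, adjusted p = 0.84). The groups overlapped in both depots. MIR30A differed by 0.32 and 0.20, MIR30B by 0.29 and 0.0079 and MIR30C by 0.047 and -0.25 in subcutaneous and visceral fat.

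Whether exposure acted differently between depots was tested as the interaction of treatment and depot. 0 of 4 members were called in the T cohort, where limma called 0% of 80 microRNAs (2 at an unadjusted p under 0.05), and 0 of 4 in the BPA cohort, where it called 0% of 73 (1 at an unadjusted p under 0.05). Adjusted p-values of the members were 0.939 to 0.957 in the T cohort and 0.847 to 0.971 in the BPA cohort.

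**Figure D4:**
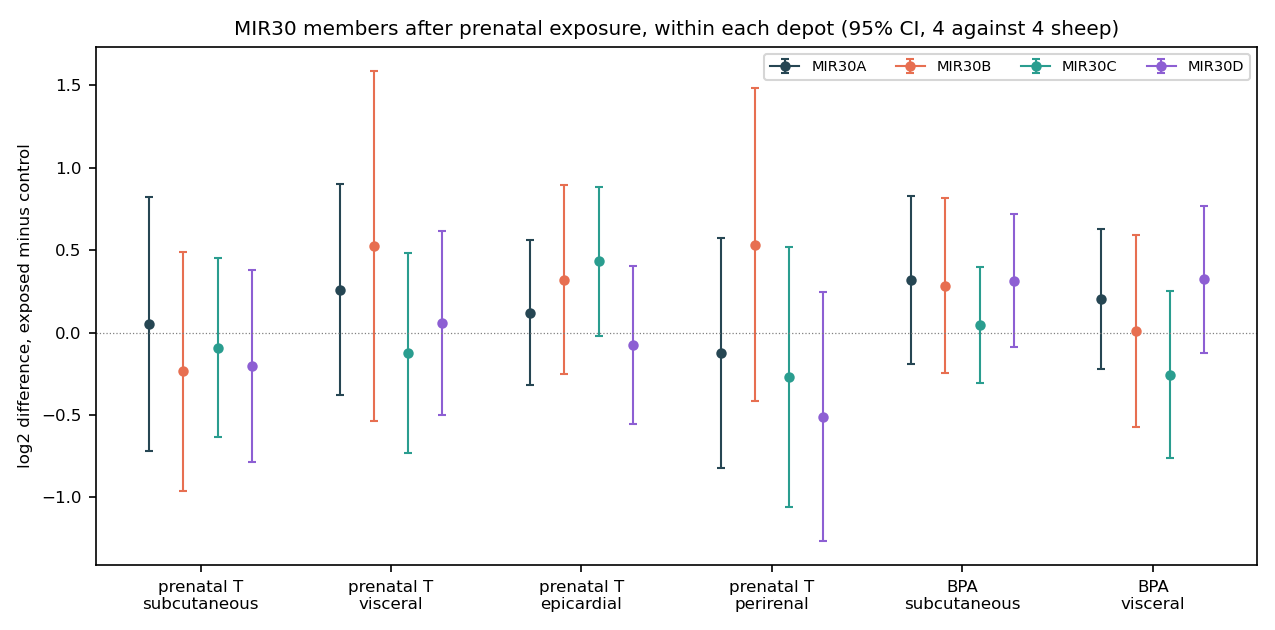
Log2 difference between exposed and control sheep (vertical axis) for each member in each depot, with 95% confidence intervals from limma, 4 against 4 sheep. Each of the 24 intervals includes 0, and the widest are those of MIR30B in visceral and perirenal fat.

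Across libraries on the cohort scale the members were most like different microRNAs. Over the 32 libraries of the T cohort, which share depots and scaling, Pearson's r of log2 normalised reads was 0.039 between MIR30A and MIR30D, 0.053 between the neighbours MIR30B and MIR30D, and at most 0.33 within the family (MIR30C and MIR30D). These values moved with scaling: MIR30A and MIR30D had an r of -0.34 with scaling outside the DLK1-DIO3 cluster and of 0.12 as CPM. As CPM each other pair of members had a higher r, from 0.47 (MIR30A and MIR30C) to 0.64 (MIR30B and MIR30C). Values with other microRNAs, given next, moved as well. Outside the cluster MIR221 had 0.37 with MIR30D and MIR10A 0.43 with MIR30A, and as CPM MIR106B had 0.45 with MIR30D. Over the 16 BPA libraries MIR30B reached 0.62 with MIR30D and 0.61 with MIR30C. MIR30D was most like MIR23B (r = 0.75, and 0.64 in the BPA cohort), MIR106B (0.71 and 0.61) and MIR221 (0.71 and 0.29). MIR30A was most like MIR10A (0.70 and 0.16), which lies in a HOX cluster, MIR143 (0.65 and 0.38) and MIR10B (0.58 and -0.39). MIR30C was most like MIR29A (0.67 and 0.64), MIR26B (0.64 and 0.62) and MIR99A (0.63 and 0.80). MIR30B was most like MIR374A (0.70 and 0.63), MIR380 (0.69 and -0.57) and MIR3958 (0.63 and -0.22). The likeness of MIR30C therefore had similar values in both cohorts, while 2 of 3 for MIR30B and 1 of 3 for MIR30A had the opposite sign.

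Other microRNAs known for roles in fat gave a frame for the members. For 15 pro-adipogenic microRNAs 10 rows were tested, with MIR181A present as 2 copies. In perirenal against subcutaneous fat of the T cohort 1 row was higher and 5 were lower (median -0.40, against 0.073 for all microRNAs). Both MIR181A copies were among the 5 lower rows. MIR103, which promotes fat storage, was the most clearly lower (-1.29, SE 0.16, limma adjusted p = 9.18e-08), and MIR143, known from adipocyte differentiation and from smooth muscle, the most clearly higher (1.19, SE 0.33, adjusted p = 0.00355). In epicardial against subcutaneous fat 0 were higher and 4 lower (median -0.66, against 0.032), and in visceral against subcutaneous fat 0 were higher and 3 lower (median -0.45, against 0.13). Of all 80 microRNAs tested 23 were higher and 16 lower in perirenal, 30 and 18 in epicardial and 20 and 14 in visceral fat. MIR30D was called lower in each of the 3 comparisons and MIR30A in the epicardial one. With scaling outside the DLK1-DIO3 cluster the pro-adipogenic counts were 2 higher and 1 lower in perirenal, 1 and 1 in epicardial, and 1 and 2 in visceral fat. MIR103 was lower in each. For all microRNAs the counts were then 33 and 6, 41 and 6, and 30 and 8.

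Anti-adipogenic microRNAs were not arranged in the opposite way. Of 22, 11 were tested, and against subcutaneous fat 1 was higher and 3 were lower in perirenal (median -0.62), 0 and 4 in epicardial (median -0.66) and 0 and 2 in visceral fat (median -0.28). MIR221 was the most clearly lower in each, at -2.21, -1.97 and -1.24 log2 units, and MIRLET7F the only higher one, in perirenal fat (0.96, SE 0.30, limma adjusted p = 0.0101). With scaling outside the cluster the counts were 2 and 1, 0 and 1, and 1 and 2, with MIR221 lower in each. Of 11 microRNAs of thermogenic fat 2 were tested and neither was called against subcutaneous fat in the T cohort, whereas outside the cluster 1 was called higher in each of the 3 depots; of 7 inhibitors of thermogenic fat 3 were tested, and MIR133, a striated muscle microRNA, was higher in epicardial than in subcutaneous fat (2.86, SE 0.64, adjusted p = 0.00039). The other 2 inhibitors were lower there, led by MIR27A (-0.74, SE 0.25, limma adjusted p = 0.0108), and 2 were lower in perirenal fat, led by MIR106B (-0.93, SE 0.25, adjusted p = 0.00318). As CPM 1 inhibitor was lower in perirenal and 0 in epicardial fat, and outside the cluster 0 were lower in either.

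In the BPA cohort, visceral against subcutaneous fat, 0 pro-adipogenic microRNAs were higher and 4 lower, led by MIR21 (-1.93, SE 0.24, limma adjusted p = 4.41e-06). There 1 anti-adipogenic microRNA was higher and 4 lower, led by MIR221 (-0.77, SE 0.14, adjusted p = 0.000165). Of all 73 microRNAs tested 21 were higher and 18 lower. Both tested microRNAs of thermogenic fat were lower, led by MIR26B (-0.67, SE 0.14, adjusted p = 0.000482). Among inhibitors of thermogenic fat MIR27A was lower as well (-0.92, SE 0.18, limma adjusted p = 0.000206), and MIR133 and MIR106B were not called. MIR27A was also called lower as CPM (-0.84) and outside the cluster (-0.59). With scaling outside the cluster 2 pro-adipogenic microRNAs were higher and 2 lower, 2 anti-adipogenic ones were higher and 2 lower, and 1 of the 2 of thermogenic fat was lower. Of all microRNAs 30 were then higher and 7 lower. For prenatal T and BPA within a depot, none of these lists had a called microRNA in any of the 6 comparisons.

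The tissue labels could be held only against microRNAs, none of which marks adipocytes alone; messenger RNA markers of adipocytes were not analysed here. Rows were found for 1 of 2 lymphocyte markers (MIR150), 1 of 6 striated muscle markers (MIR133), 1 of 2 smooth muscle markers (MIR143), 3 of 5 epithelial or mesothelial markers (MIR200A, MIR200B and MIR200C) and 1 of 2 kidney epithelium markers (MIR194), and for none of the myeloid, erythroid and endothelial markers. MIR133 was 372 to 25852 CPM in epicardial fat (median 2828) and 132 to 881 CPM in subcutaneous fat (median 317). This stood beside the lowest MIR30A of the 4 depots on the cohort scale. As CPM epicardial minus subcutaneous MIR30A was -0.16, with higher values in 4 of 8 sheep, and outside the DLK1-DIO3 cluster it was -0.014. MIR143 was 37170 to 175334 CPM in perirenal fat and 21070 to 73833 CPM in subcutaneous fat (medians 125788 and 37665), beside the high perirenal MIR30A over MIR30D ratio. MIR194 was 96.3 to 338 CPM in perirenal and 54.8 to 201 CPM in subcutaneous fat, and the MIR200 sum 19.7 to 200.1 and 10.1 to 44.3 CPM. Lymphocyte MIR150 had medians of 3752 and 3186 CPM in these depots. The part of these cell types in the MIR30 differences was not tested.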

How the data were processed

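Small RNA libraries were made from total RNA of 48 fat samples, per the labels' protocols. The submitters' processing notes list featureCounts 1.6.1, STAR 2.6.0c and cutadapt 3.2; neither a genome build nor the handling of reads that fit several genes is given there. The deposited values are a signal, reads per microRNA divided by a size factor. From the values, these factors equalled median-of-ratios factors of each depot (SD of their log2 difference 0). They were divided by median-of-ratios factors over all libraries of a cohort (69 microRNAs above 0 throughout in the T cohort, 74 in the BPA cohort) for depot comparisons. Reads were estimated from the steps of the values (100% came out whole within 1e-05) and used for depth, shares, CPM, the Poisson interval and the comparison of libraries, not for a count test.

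log2(value + 1) was fitted with limma 3.58.1 (R 4.3.3, trend) over microRNAs with a mean of at least 5, and adjusted over those tested; fold changes on this scale understate changes of low microRNAs. Depot contrasts came from 1 fit per cohort and treatment contrasts from 1 fit per depot, checked on simulated data. Members of a sheep pair across depots by the labels' sheep numbers: the median r of deviations from the group mean was 0.15 within and -0.060 between sheep for T, and 0.18 and 0.0050 for BPA. Libraries of a group differed beyond counting error in each pair (lowest chi-square per degree of freedom 39.9). Members were named by the family symbol; for each member the 3 microRNAs with the highest r over the T libraries were named, and of each fat list the called microRNA with the smallest adjusted p in each direction. Members and lists were chosen with earlier results of these data known. No column of the tables read was left out (0).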

Additional observations from a re-analysis of the deposited data

Results flagged for a closer look

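In groups of 4 sheep, 5 of 48 combinations of member and group had a sheep apart from the other 3 by Dixon's test at the 95% level, where chance gives about 2.4. On the cohort scale, MIR30B in prenatal T sheep 255 was 601 normalised reads in perirenal fat (others 132 to 211) and 899.6 in visceral fat (others 170.3 to 247). MIR30D in perirenal fat was 2144 in the same sheep (others 3378 to 3615), but as CPM 7108, within the others (4944 to 7359). MIR30D in perirenal fat of control sheep 098 was 6027 (others 3596 to 3818); this library is of the later set and the other 3 are early. MIR30A in subcutaneous fat of BPA sheep 918 was 3801 (others 2237 to 2393).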

How the results depend on the processing

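Deposited values have a size factor set within each depot, so depots are not on a common scale there. The number of members called per depot comparison moved with the settings. As deposited, it was 4 for visceral against subcutaneous fat of the T cohort (1 in the main analysis), 0 for epicardial against subcutaneous (2), 2 for perirenal against subcutaneous (1), 3 for epicardial against visceral (1), 4 for perirenal against visceral (1), 1 for perirenal against epicardial (2) and 3 for visceral against subcutaneous fat of the BPA cohort (1), where 47, 44, 46, 61, 63, 20 and 53 microRNAs in all were called. As CPM it was 0 for epicardial against subcutaneous, 2 for epicardial against visceral and 0 for perirenal against visceral. All microRNAs called were then 39, 14 and 16. Scaled outside the DLK1-DIO3 cluster the members called were 1, 2 and 2 for epicardial against subcutaneous, perirenal against subcutaneous and epicardial against visceral. In all 47, 39 and 12 microRNAs were called there. With control sheep alone the number of members was 0 for epicardial against subcutaneous, epicardial against visceral, perirenal against visceral and the BPA cohort. It was 2 for perirenal against subcutaneous and 1 for perirenal against epicardial. All microRNAs called were then 42, 14, 7, 18, 22 and 18. With exposed sheep alone 0 members were called in each T comparison but perirenal against subcutaneous, where 15 microRNAs in all were called. Where 0 members were called, all microRNAs called were 21 for visceral and 22 for epicardial against subcutaneous fat. They were 2 for epicardial and 1 for perirenal against visceral fat, and 3 for perirenal against epicardial fat. With early libraries alone 1 member was called for epicardial against subcutaneous and 0 for epicardial against visceral, perirenal against visceral and perirenal against epicardial. All microRNAs called were then 30, 1, 5 and 2. A term for the set gave 0 members for perirenal against visceral, 1 for perirenal against epicardial and 0 in the BPA cohort, beside 7, 20 and 45 microRNAs in all. Leaving out 1 sheep gave 1 to 2, 2 to 2, 1 to 2, 0 to 1, 0 to 1, 1 to 2 and 0 to 3 members in the order first given. In the same order all microRNAs called were 31 to 39, 42 to 50, 32 to 40, 3 to 25, 5 to 30, 13 to 31 and 37 to 43. Without the visceral and perirenal libraries of sheep 255 it was 2 for visceral and 2 for perirenal against subcutaneous fat, where 40 and 35 microRNAs in all were called. Fewer sheep were fitted in several of these; otherwise the cause was not tested.

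Signs reversed as deposited for MIR30A (-0.57) and MIR30B (-0.65) in visceral against subcutaneous fat, MIR30C in perirenal against subcutaneous (0.53), MIR30A in epicardial against visceral (0.42), and MIR30B (0.97) and MIR30D (1.01) in perirenal against visceral fat, and outside the cluster for MIR30C (0.52) and MIR30D (0.060) in epicardial against subcutaneous fat. As deposited depots are not on a common scale, so those reversals are not read as depot differences. The median difference of all microRNAs as deposited was itself -0.53 in visceral and 0.86 in perirenal against subcutaneous fat. It was 1.14 in epicardial and 1.43 in perirenal against visceral fat. The counts that follow include the deposited scale. Of 556 depot values of single members under an alternative, 56 lost and 30 gained a call; 41 more changed sign without being called in either setting, as did 33 of 332 treatment values, where no alternative gave a call. Sheep as a replicate block changed no call in the main scaling (MIR30D in perirenal against subcutaneous fat -1.10, adjusted p = 9.1e-06); with the block and the set term together 0 members were called for perirenal against visceral and 1 for perirenal against epicardial fat, and in the BPA cohort MIR30A gained (0.56) and MIR30D lost its call (-0.19). Treatment groups held different sheep, so no block was possible there. The planned count tests with edgeR and DESeq2 were not run, because tables this short hold too few values for a further check of the estimated reads. Depth limits MIR30B most, with 41 reads in the poorest library.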
